A study of Mus musculus with 12 samples.

Results

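The comparison described here is that of Jrt;Sost-ko with Jrt;Sost-het mice, 4 mice per group and 8 of the 12 mice sequenced, which asks how the bone transcriptome differs when sclerostin is lost entirely rather than in part in a model of severe osteogenesis imperfecta. The members were chosen by genotype label alone, and all genes were examined. RNA came from the tibia shaft, after the marrow had been flushed out, of male mice aged 8 weeks. Poly(A) RNA was sequenced, and each library is 1 mouse. The Jrt;Sost-ko mice are labelled Col1a1 Jrt/+ and Sost-/-. The Jrt;Sost-het mice are labelled by their Col1a1 Jrt/+ genotype only, and their Sost +/- genotype is known from the study's methods.

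Both groups carried 1 copy of Jrt, a splice site mutation of Col1a1 that shortens the helix-forming region of its collagen chain. The Jrt allele arose on the FVB background and the Sost null allele on C57BL6, and the mice came from 1 colony of mixed FVB/C57BL6 background. Col1a1 and Sost lie 7.03 Mb apart on chromosome 11, and the knockout mice carried a recombinant chromosome that joined both mutant alleles. Alleles of other genes beside Sost were inherited with the null allele, and their part cannot be told apart from that of Sost. The null allele is present in every cell of the knockout mice throughout life. No mouse with the Jrt allele and 2 intact Sost copies entered the comparison, so the reference is the loss of 1 Sost copy.

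Sclerostin, the product of Sost, is secreted mainly by osteocytes, the cells embedded in mineralized bone. It binds the Wnt co-receptors Lrp5 and Lrp6, with Lrp4 as its anchor, and so dampens canonical Wnt signalling, in which stabilized beta-catenin acts with Tcf and Lef factors on target genes. Osteoblasts respond to Wnt signals with matrix production, and antibodies to sclerostin are used to raise bone mass.

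The 8 libraries held between 24366061 and 37370099 counts assigned to genes. The Jrt;Sost-ko libraries were deeper, with a median of 32340327.5 counts against 26164560, and the ranges overlapped. Levels are given as CPM, the count of a gene scaled to the size of its library, after TMM normalization, and values in a row are for mice 1 to 4 of a group. Genes that define osteoblasts and osteocytes were read in all 8 mice, with Col1a1 between 13623 and 30090 CPM, Bglap at 478.3 CPM or more, Dmp1 at 156.3 CPM or more and Mepe at 67.03 CPM or more, while the osteocyte gene Fgf23 did not exceed 0.608 CPM. Transcripts of marrow cells were still present. Summed erythroid genes reached 17237 to 27651 CPM and neutrophil genes 18450 to 28001 CPM. Skeletal muscle varied most between mice. Summed CPM of 16 muscle genes was 2575 to 31547 in Jrt;Sost-het and 38.65 to 13780 in Jrt;Sost-ko mice, with the extremes in Jrt;Sost-het mouse 4 and Jrt;Sost-ko mouse 4. Summed CPM of 13 chondrocyte genes was 1147 to 5561 in Jrt;Sost-het, highest in mouse 1, while the median in the knockout mice was 1576. As these are bulk samples, fewer cells of a type and less RNA per cell cannot be told apart.

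Sost fell to near absence in the knockout mice and was the only gene to pass the test. The gene spans chr11:101962458-101967015 on the minus strand (GRCm38; ENSMUSG00000001494). In Jrt;Sost-het mice it was read at 27.98, 34.43, 70.07 and 27.15 CPM, that is 740, 1020, 1871 and 648 counts. The knockout mice gave 0.572, 1.29, 0.509 and 0.325 CPM, that is 16, 43, 19 and 10 counts. The groups did not overlap, and Jrt;Sost-het mouse 3 stood well above the other heterozygotes. The knockout mean of 0.673 ± 0.421 CPM (SD, n = 4 mice) was 1.69% of the heterozygote mean of 39.91 ± 20.37 CPM. The log2 fold change was -5.87 with a standard error (SE) of 0.485 and an adjusted p of 0.013 (edgeR quasi-likelihood test, Benjamini-Hochberg). With 1 mouse left out, edgeR gave an adjusted p of 0.117, 0.138 and 0.0805 without Jrt;Sost-ko mouse 1, 3 and 4, with log2 fold changes of -5.81, -5.75 and -5.66. Where in the gene the remaining 10 to 43 reads lay was not analysed here, as the counts are per gene.

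Of 16739 genes tested, 1 (0.00597%) had an adjusted p under 0.05. The next smallest adjusted p was 0.901, shared by 4761 genes. Without adjustment, 841 genes (5.02%) had p under 0.05, of which 442 (2.64% of all tested) were higher and 399 (2.38%) lower in Jrt;Sost-ko mice. For 545 genes (3.26%) the groups did not overlap, with all knockout values above or all below every heterozygote value. Of these, 316 (1.89% of all tested) were higher and 229 (1.37%) lower. These percentages are the background against which the counts of gene groups below are to be read. The smallest p that an exact permutation test can give with 4 against 4 mice is 0.0286.

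The data bounded most differences closely. The median log2 fold change was 0.001, with 50.4% of genes above 0, and the median SE was 0.123. For 14234 genes (85%) the 95% confidence interval lay within -1 and 1 on the log2 scale, which sets a limit of 1 log2 unit either way. An absolute log2 fold change above 1 was found for 267 genes, 46 higher and 221 lower in knockout mice.

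**Figure D1:**
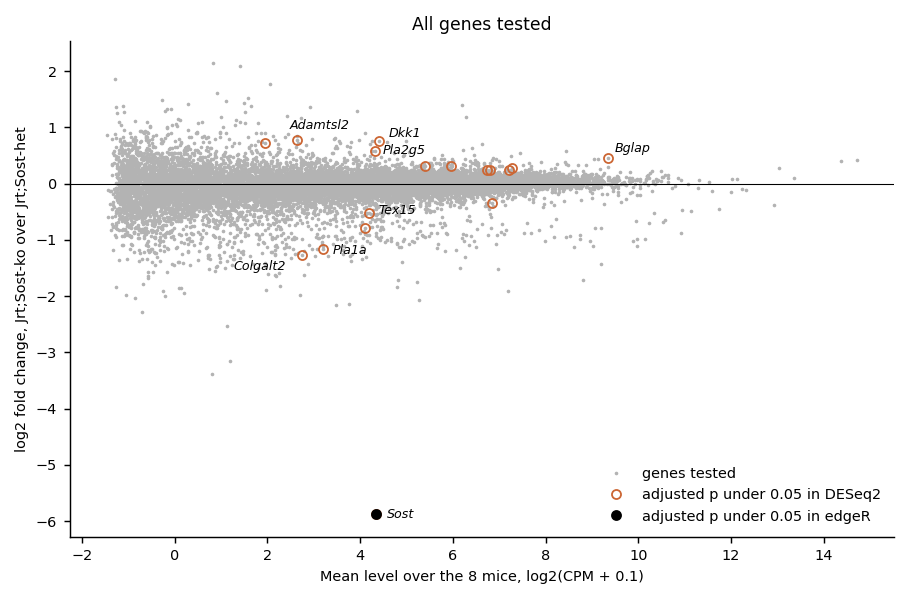
Log2 fold change of Jrt;Sost-ko over Jrt;Sost-het against the mean level over the 8 mice, log2(CPM + 0.1), for the 16739 genes tested. Sost (filled point) lies alone at -5.87, and the open circles are the genes with an adjusted p under 0.05 in DESeq2, most of which lie within 1 of the zero line.

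With DESeq2 in place of edgeR, 18 of 17272 genes (0.104%) had an adjusted p under 0.05, Sost among them, and 7 at that tool's default filter. The 7 were Sost, Tex15, Colgalt2, Pla1a, Iars, Pla2g5 and Utp20. Genes given below with a DESeq2 adjusted p of 0.0497 had 0.0611 at the default filter and were not called there. Tex15, Colgalt2, Pla1a and Pla2g5 are also named by the study, and as that list was drawn from these same mice it is no independent evidence. In edgeR each of the 6 genes beside Sost had an adjusted p of 0.901.

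Colgalt2, which encodes a galactosyltransferase that glycosylates hydroxylysine in collagen, lies at chr1:152399830-152510695. It was read at 11.61, 9.21, 8.50 and 7.84 CPM in Jrt;Sost-het and at 4.15, 2.15, 5.68 and 3.38 CPM in Jrt;Sost-ko mice. All knockout values were below all heterozygote values, with a log2 fold change of -1.27 (SE 0.273; DESeq2 adjusted p = 0.00815). Its paralog Colgalt1 had a log2 fold change of -0.02, with a 95% interval from -0.221 to 0.182, and the groups overlapped.

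Tex15, known from meiotic recombination and transposon silencing in the male germ line, lies at chr8:33516738-33585582. Its levels were 19.48, 24.50, 20.60 and 20.78 CPM in Jrt;Sost-het and 14.91, 15.98, 14.27 and 14.67 CPM in Jrt;Sost-ko mice. The difference was small but the spread within groups was smaller, and the log2 fold change was -0.51 (SE 0.0884; DESeq2 adjusted p = 0.0077).

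The other named pair are phospholipases. Pla1a (chr16:38396117-38433145) encodes a phosphatidylserine-specific phospholipase A1. It was read at 10.97, 18.60, 12.66 and 8.25 CPM in Jrt;Sost-het and at 4.18, 5.02, 7.47 and 5.86 CPM in Jrt;Sost-ko mice, a log2 fold change of -1.16 (SE 0.264; DESeq2 adjusted p = 0.0222). Pla2g5 (chr4:138799244-138863482) encodes a secreted phospholipase A2, and it was the reverse case. Its levels were 17.21, 17.99, 14.79 and 13.83 CPM in Jrt;Sost-het and 25.56, 27.25, 22.54 and 20.62 CPM in Jrt;Sost-ko mice, a log2 fold change of 0.59 (SE 0.118; DESeq2 adjusted p = 0.0222). Neither gene's groups overlapped.

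**Figure D2:**
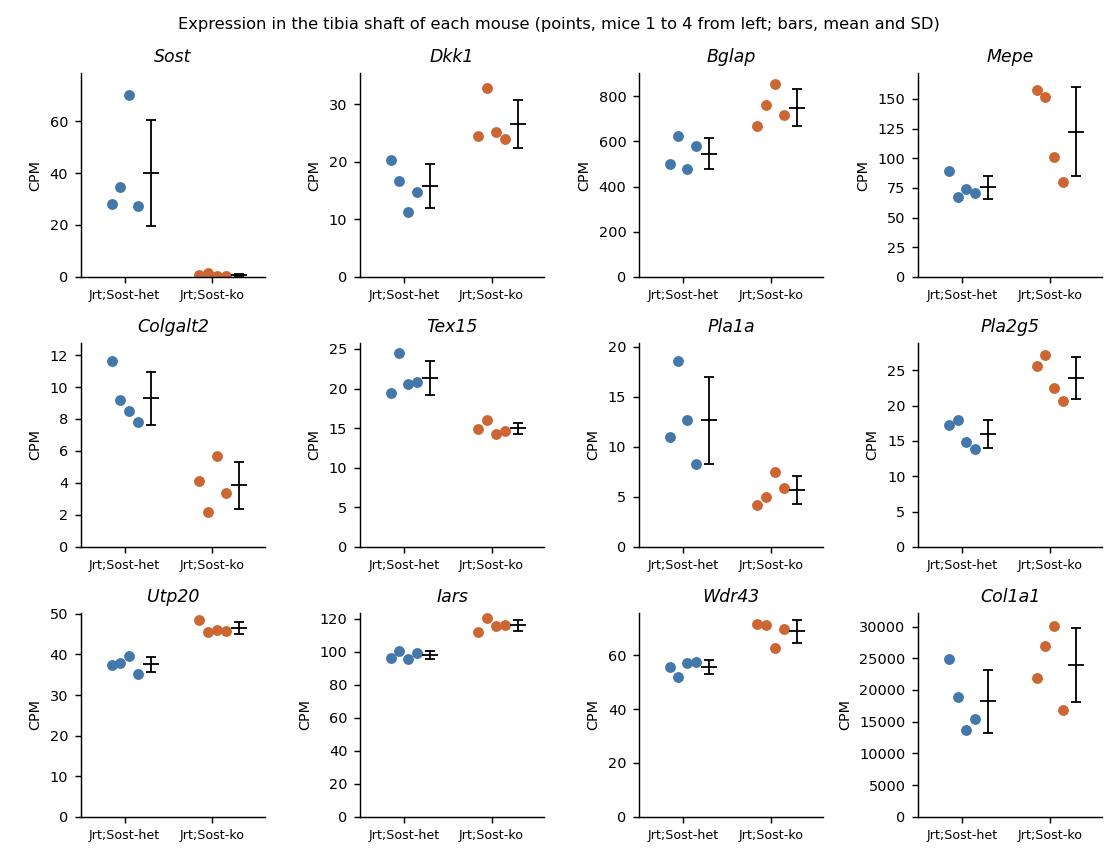
CPM of 12 genes in each mouse, with Jrt;Sost-het in blue and Jrt;Sost-ko in orange, and the mean and SD of 4 mice as bars. Groups are apart for Sost, Dkk1, Bglap, Colgalt2, Tex15, Pla1a, Pla2g5, Utp20, Iars and Wdr43, and they overlap for Mepe and Col1a1.

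Because sclerostin acts on canonical Wnt signalling, genes known as its targets were examined as a list. Of 25 listed targets 24 were tested, and none had an adjusted p under 0.05. Unadjusted p was under 0.05 for 7, all higher in Jrt;Sost-ko mice (29.2% of those tested, where 2.64% of all genes were higher at that p), and 20 of 24 had a log2 fold change above 0. With 1 mouse left out the median of 0.27 lay between 0.199 and 0.315, but the 7 genes became 3 without heterozygote mouse 3 or 4 or knockout mouse 2, 4 without knockout mouse 3 and 11 without knockout mouse 4. Members of a list vary together between mice, so these counts are not independent observations, here and below.

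Dkk1, a secreted Wnt antagonist that is itself a Wnt target, differed most among the targets. It was read at 20.38, 16.57, 11.20 and 14.71 CPM in Jrt;Sost-het and at 24.38, 32.78, 25.22 and 24.01 CPM in Jrt;Sost-ko mice. All 4 knockout mice were above all heterozygotes, with a log2 fold change of 0.76 (SE 0.18) and an unadjusted p of 0.00228 in edgeR. The adjusted p in DESeq2 was 0.0497, and 0.0611 at that tool's default filter.

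The stretch before the Dkk1 start in RefSeq is shown for the letters CTTTGA, a core of sites that Tcf and Lef factors bind. These 250 bases, chr19:30549497-30549746 on the minus strand (GRCm38.p6), hold the motif on either strand 2 times, marked by capitals (TCAAAG being its reverse complement). In GENCODE M21 the gene reaches 30549665, so that 169 of the 250 bases lie inside it.
Dkk1: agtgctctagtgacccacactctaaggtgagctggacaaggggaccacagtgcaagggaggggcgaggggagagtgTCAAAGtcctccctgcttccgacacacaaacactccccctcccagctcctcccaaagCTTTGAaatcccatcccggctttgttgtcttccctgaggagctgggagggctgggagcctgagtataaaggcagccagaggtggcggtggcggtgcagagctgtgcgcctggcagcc
Of all 32851 promoter stretches of this length 13.8% held the motif, and it was found in 1 of 15 promoters of Wnt targets, that of Dkk1. A match of letters is a description and not a binding site.

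The remaining 6 targets with an unadjusted p under 0.05 overlapped between groups. Myc, the growth regulator, was read at 43.64, 39.12, 42.47 and 38.76 CPM in Jrt;Sost-het and at 64.06, 67.07, 42.68 and 49.97 CPM in Jrt;Sost-ko mice (log2 fold change 0.45). Tnfrsf11b, which encodes the osteoclast inhibitor osteoprotegerin, was read at 11.84, 12.42, 10.49 and 8.84 CPM in Jrt;Sost-het and at 18.77, 20.26, 15.58 and 9.92 CPM in Jrt;Sost-ko mice (0.57). In both genes 1 knockout mouse, mouse 3 for Myc and mouse 4 for Tnfrsf11b, lay within the heterozygote range. The other 4 were Nkd2 (0.45), Wisp1 (0.42), Tnfrsf19 (0.34) and Bambi (0.44), in log2 fold change.

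Axin2, a negative feedback component, had a log2 fold change of 0.21 with a 95% interval from -0.374 to 0.789. The factors Lef1 (0.30, interval -0.042 to 0.649) and Tcf7 (0.24, interval -0.019 to 0.5) likewise overlapped between groups. For Nkd1 and Notum, feedback inhibitors, the means were lower in knockout mice, with log2 fold changes of -0.21 and -0.19. Ccnd1 was bounded more tightly, at 0.05 with an interval from -0.209 to 0.305.

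Among 11 secreted Wnt antagonists, 5 had a log2 fold change above 0 and the median was -0.006. Leaving out 1 mouse gave 4 to 9 genes above 0. The median then ran from -0.059 without heterozygote mouse 2 to 0.213 without knockout mouse 4. Beside Dkk1, Dkk2 had an unadjusted p under 0.05 in the opposite direction. Dkk2 was read at 6.09, 7.42, 4.98 and 7.58 CPM in Jrt;Sost-het and at 5.00, 4.96, 4.31 and 2.63 CPM in Jrt;Sost-ko mice, with a log2 fold change of -0.62 and overlapping groups. Sostdc1, the closest paralog of Sost, was low throughout, between 0.113 and 1.14 CPM, and its interval from -0.431 to 1.89 left its difference unresolved at this depth. Wif1, which binds Wnt proteins directly, differed by -0.006 with an interval from -0.204 to 0.191.

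Among the receptors through which sclerostin acts, Lrp4 had a log2 fold change of -0.04 (interval -0.376 to 0.306), Lrp5 of -0.02 (-0.207 to 0.171) and Lrp6 of 0.03 (-0.189 to 0.254). Of 19 receptors and co-receptors tested, 8 were above 0 with a median of -0.018, and only Ryk, a receptor of noncanonical Wnt signals, had an unadjusted p under 0.05 (0.25). Leaving out 1 mouse gave 5 to 13 above 0 and a median from -0.086 (without knockout mouse 3) to 0.090 (without knockout mouse 4). Of 17 Wnt ligands and secretion factors tested, of 24 listed, 9 were above 0 with a median of 0.028, and none had a p under 0.05. Wnt5b came nearest, at 13.31, 9.92, 9.48 and 9.68 CPM in Jrt;Sost-het and 13.66, 14.88, 19.87 and 9.56 CPM in Jrt;Sost-ko mice. For these 17 genes, leaving out 1 mouse gave 7 to 12 above 0 and a median from -0.072 to 0.116.

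Osteoblast genes had higher means in Jrt;Sost-ko mice without passing the test. Of 15 genes, 13 were above 0, and the median log2 fold change was 0.26. An unadjusted p under 0.05 was found for 3, all higher (20%, where 2.64% of all genes were higher at that p). With 1 mouse left out the median was lowest without knockout mouse 2 (0.123), and the 3 genes became 6 without heterozygote mouse 1 and 8 without knockout mouse 4. Bglap, which encodes osteocalcin, the main noncollagenous protein of mature osteoblasts, was read at 497.8, 624.4, 478.3 and 578.9 CPM in Jrt;Sost-het mice. In Jrt;Sost-ko mice it was read at 667.3, 760.4, 856.5 and 715.1 CPM, above every heterozygote (log2 fold change 0.46, SE 0.113; DESeq2 adjusted p = 0.0497). Bglap2 had 247.5, 300.3, 229.8 and 280.0 CPM against 310.2, 335.3, 373.9 and 333.2 CPM, again with no overlap (0.35, SE 0.0981).

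Bglap and Bglap2 are neighbouring copies on the minus strand of chromosome 3, and their coding sequences are shown because they bear on how reads were divided. Over 288 bases they differ at 4 positions (capitals), an identity of 98.6%, and share an unbroken stretch of 241 bases. The transcripts span chr3:88383501-88384433 and chr3:88377736-88378699 (GRCm38, GENCODE M21).
Bglap: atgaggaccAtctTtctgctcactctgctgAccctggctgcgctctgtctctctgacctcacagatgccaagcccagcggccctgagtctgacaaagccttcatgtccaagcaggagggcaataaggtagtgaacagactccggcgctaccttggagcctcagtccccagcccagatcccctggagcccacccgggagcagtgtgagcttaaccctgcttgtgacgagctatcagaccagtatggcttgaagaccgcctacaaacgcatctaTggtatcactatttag
Bglap2: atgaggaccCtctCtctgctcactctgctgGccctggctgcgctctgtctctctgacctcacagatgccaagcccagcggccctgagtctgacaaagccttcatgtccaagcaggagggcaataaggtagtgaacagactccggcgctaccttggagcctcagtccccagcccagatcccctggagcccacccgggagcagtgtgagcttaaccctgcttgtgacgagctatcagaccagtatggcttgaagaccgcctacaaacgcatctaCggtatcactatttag
The share of reads counted to each copy is therefore uncertain. The third copy, Bglap3, lay between 0.749 and 2.13 CPM in all 8 mice.

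Ifitm5, the osteoblast protein mutated in osteogenesis imperfecta type V, was the third osteoblast gene with an unadjusted p under 0.05. It was read at 19.82, 17.15, 15.20 and 16.72 CPM in Jrt;Sost-het and at 21.13, 24.62, 24.20 and 18.35 CPM in Jrt;Sost-ko mice (log2 fold change 0.36), and the groups overlapped by 1 mouse on each side. The lineage factors differed little, with Runx2 at 0.11 (interval -0.157 to 0.368), Sp7 at 0.26 (-0.125 to 0.64) and Dlx5 at 0.03 (-0.27 to 0.325). Alpl, the mineralizing phosphatase, differed by 0.07 with an interval from -0.383 to 0.518.

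Type I collagen had higher means in knockout mice, within the spread. Col1a1, the gene that carries the Jrt mutation in both groups, was read at 24828, 18942, 13623 and 15415 CPM in Jrt;Sost-het and at 21884, 26985, 30090 and 16767 CPM in Jrt;Sost-ko mice. The difference of 0.39 in log2 had an interval from -0.145 to 0.934, and an exact permutation test gave p = 0.2. Col1a2 paralleled it mouse by mouse, at 28368, 24597, 18749 and 20373 CPM against 28517, 34259, 36805 and 23009 CPM (0.41, interval -0.026 to 0.851; exact permutation p = 0.114). Of 10 fibrillar collagen genes 8 were above 0 with a median of 0.146, and none had an unadjusted p under 0.05. Without heterozygote mouse 1 the median was 0.348 and 4 genes had such a p. Without knockout mouse 4 these were 0.284 and 2, while the median was 0.040 without heterozygote mouse 3. In 9 of 10 of these genes Jrt;Sost-het mouse 1 was the highest heterozygote, and in 10 of 10 Jrt;Sost-ko mouse 4 was the lowest knockout. Counts do not separate the Jrt from the normal Col1a1 allele.

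Of 37 genes that modify, fold or crosslink collagen, 30 were above 0 with a median log2 fold change of 0.09 (0.034 without knockout mouse 2, 0.213 without heterozygote mouse 1). Plod2, the lysyl hydroxylase of the collagen telopeptides, was read at 172.2, 123.4, 105.0 and 104.9 CPM in Jrt;Sost-het and at 184.1, 207.2, 184.3 and 131.4 CPM in Jrt;Sost-ko mice (0.48). Pcolce2, an enhancer of procollagen C-proteinase, was lower together with Colgalt2. It had 20.27, 12.66, 13.71 and 16.59 CPM in Jrt;Sost-het and 9.44, 5.02, 11.78 and 5.86 CPM in Jrt;Sost-ko mice, with no overlap (-0.98). The chaperone gene Serpinh1 (0.30), the prolyl hydroxylase gene P4ha1 (0.37) and the crosslinking gene Lox (0.34) had overlapping groups.

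Osteocyte genes had mostly higher means as well, and Sost itself was not counted in their list. Of 13 genes, 11 were above 0 with a median of 0.32 (0.227 to 0.451 with 1 mouse left out). In the higher direction 2 had an unadjusted p under 0.05 (15.4%, where 2.64% of all genes did). In the lower direction 1 did, Fbln7 (edgeR, unadjusted p = 0.00542), where 2.38% of all genes did. The 2 higher genes became 6 without heterozygote mouse 1 or knockout mouse 4. Mepe, which encodes a matrix phosphoglycoprotein of osteocytes, was read at 89.40, 67.03, 74.23 and 70.64 CPM in Jrt;Sost-het and at 157.2, 151.4, 101.1 and 80.22 CPM in Jrt;Sost-ko mice. Knockout mice 1 to 3 were above all heterozygotes and mouse 4 was not (0.70, SE 0.209). The same held for the homeobox gene Irx5, at 0.44.

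Dmp1, needed for osteocyte maturation and phosphate balance, was read at 446.4, 247.3, 156.3 and 254.1 CPM in Jrt;Sost-het and at 438.0, 539.0, 410.1 and 274.2 CPM in Jrt;Sost-ko mice, and heterozygote mouse 1 lay among the knockouts (0.59, interval -0.11 to 1.29). Fbln7, a fibulin, and the receptor gene Ackr3 (-0.03) were the 2 genes below 0. Fbln7 levels were 25.83, 20.39, 12.10 and 13.66 CPM in Jrt;Sost-het and 10.15, 7.80, 11.91 and 6.93 CPM in Jrt;Sost-ko mice, with no overlap (-0.97). Fgf23, the phosphate-regulating hormone, was at most 0.608 CPM, and its interval from -1.05 to 1.32 shows how little was resolved at so low a level. Among 16 mineralization genes, which include Mepe, Bglap and Bglap2, 14 were above 0 with a median of 0.18.

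**Figure D3:**
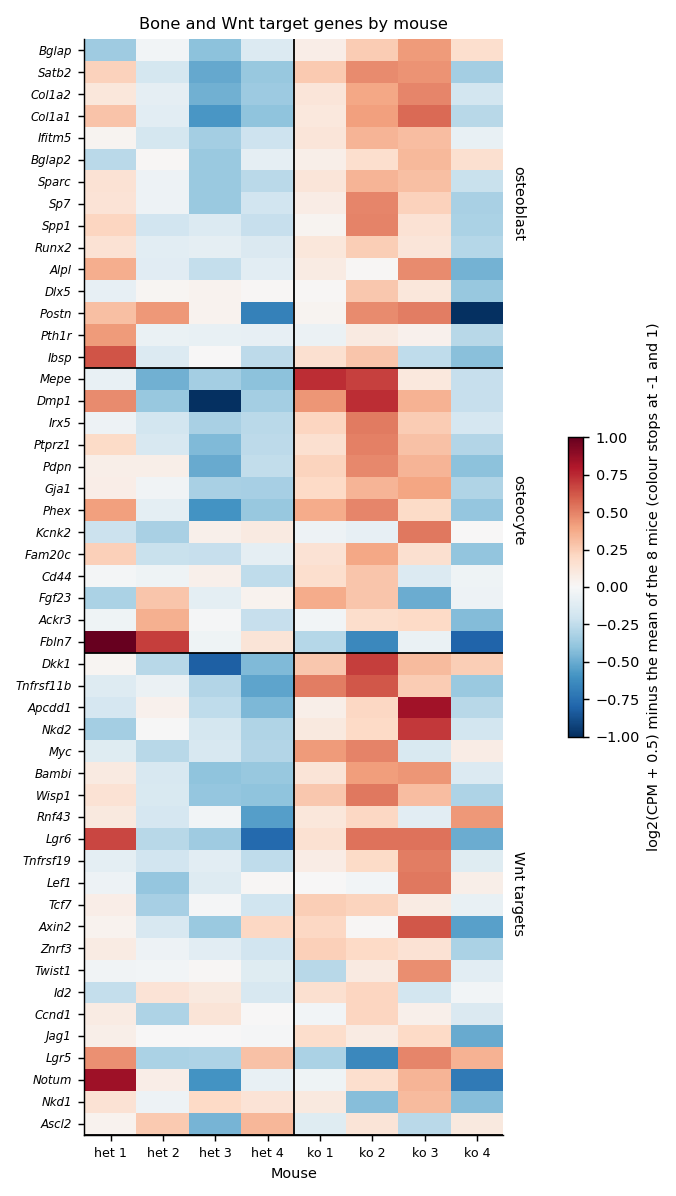
Log2(CPM + 0.5) of osteoblast, osteocyte and Wnt target genes in each mouse, minus the mean of the 8 mice (red, higher; blue, lower; colour stops at -1 and 1). Genes on 2 lists are drawn once. Jrt;Sost-ko mouse 4 is the lowest knockout in 13 of 15 osteoblast genes and Jrt;Sost-het mouse 1 the highest heterozygote in 11 of 15.

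The bone genes varied between mice of a group. Jrt;Sost-ko mouse 4 was the lowest knockout in 13 of 15 osteoblast, 10 of 13 osteocyte and 15 of 24 Wnt target genes, where it was lowest in 31.2% of all genes tested. Jrt;Sost-het mouse 1 was the highest heterozygote in 11 of 15, 8 of 13 and 13 of 24 of them, where it was highest in 26.9% of all genes. The mean log2 CPM of the osteoblast list was 8.78, 8.57, 8.36 and 8.39 in Jrt;Sost-het and 8.71, 8.94, 8.91 and 8.33 in Jrt;Sost-ko mice. Knockout mouse 4 thus lay below every heterozygote, and it was also the mouse almost without muscle transcripts. With the muscle genes as a covariate the medians of the osteoblast, osteocyte and Wnt target lists were 0.33, 0.37 and 0.33. Its part in the bone gene values was not tested beyond this.

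No osteoclast gene was resolved. Of 16 genes, 4 were above 0, none had an unadjusted p under 0.05, and the median of -0.051 turned to 0.138 without Jrt;Sost-het mouse 1, which was highest of its group in 13 of 16. Ctsk, the collagen-degrading cathepsin K, differed by -0.005 (interval -0.482 to 0.472) and Acp5, the tartrate-resistant phosphatase, by -0.06 (interval -0.589 to 0.466). Of 7 genes that signal to osteoclasts, Tnfrsf11b alone had an unadjusted p under 0.05. Tnfsf11, which encodes RANKL, was read at 7.79, 4.52, 5.99 and 4.99 CPM in Jrt;Sost-het and at 6.86, 6.81, 8.17 and 3.58 CPM in Jrt;Sost-ko mice (0.13, interval -0.473 to 0.728).

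Ligands of the BMP family were mixed. Of 32 BMP and TGF-beta genes, 22 were above 0 with a median of 0.058. An unadjusted p under 0.05 was found for 3, all higher (9.38%, where 2.64% of all genes were higher at that p). Bmp2, an inducer of bone formation, was read at 12.14, 10.36, 11.91 and 10.06 CPM in Jrt;Sost-het and at 15.12, 18.94, 18.18 and 11.68 CPM in Jrt;Sost-ko mice (0.52). Bmp7 had 7.49, 7.32, 7.19 and 6.91 CPM against 9.01, 10.76, 11.67 and 7.68 CPM, with no overlap (0.44). Bmp3, which antagonizes the bone-forming BMPs, was also higher in mean, at 0.37 with overlapping groups. Bmp4 (-0.09), Bmp5 (0.02), Bmp6 (-0.07) and Bmp8a (0.36) had overlapping groups and larger p. Without knockout mouse 4 the 3 genes became 8, without heterozygote mouse 1 they became 5, and the median ran from 0.007 to 0.110 with 1 mouse left out.

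Other matrix and signalling lists were mixed. Small leucine-rich proteoglycans had 3 of 12 genes above 0 and a median of -0.21, which was -0.027 without knockout mouse 4, -0.113 without heterozygote mouse 1, -0.359 without knockout mouse 3 and -0.368 without heterozygote mouse 3. Among them Omd, which binds bone mineral, was higher (0.33), and Prelp (-0.77) and Ecm2 (-0.65) were lower with no overlap, all 3 with an unadjusted p under 0.05. Of all genes, 2.64% were higher and 2.38% lower at that p, and 1.37% were lower without overlap. Without heterozygote mouse 1, 0 genes of the list were higher and 2 lower at that p. Prelp was read at 110.0, 60.82, 53.33 and 51.24 CPM in Jrt;Sost-het and at 49.01, 34.63, 46.77 and 30.64 CPM in Jrt;Sost-ko mice, with heterozygote mouse 1 well above the rest.

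None of 15 matrix metalloproteinases and inhibitors had an unadjusted p under 0.05 (median -0.008). In the IGF system 5 of 13 were above 0, with Igfbp7 lower and without overlap (-0.26). Of 12 Hedgehog and PTH receptor genes 4 were above 0, and Hhip, a Hedgehog antagonist, was lower (-0.73). Of 13 Notch genes 5 were above 0 and none had a p under 0.05. Of 27 unfolded protein response genes 23 were above 0 with a median of 0.13 and none with a p under 0.05. Hspa5, the chaperone BiP, differed by 0.14 with an interval from -0.112 to 0.389.

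**Figure D4:**
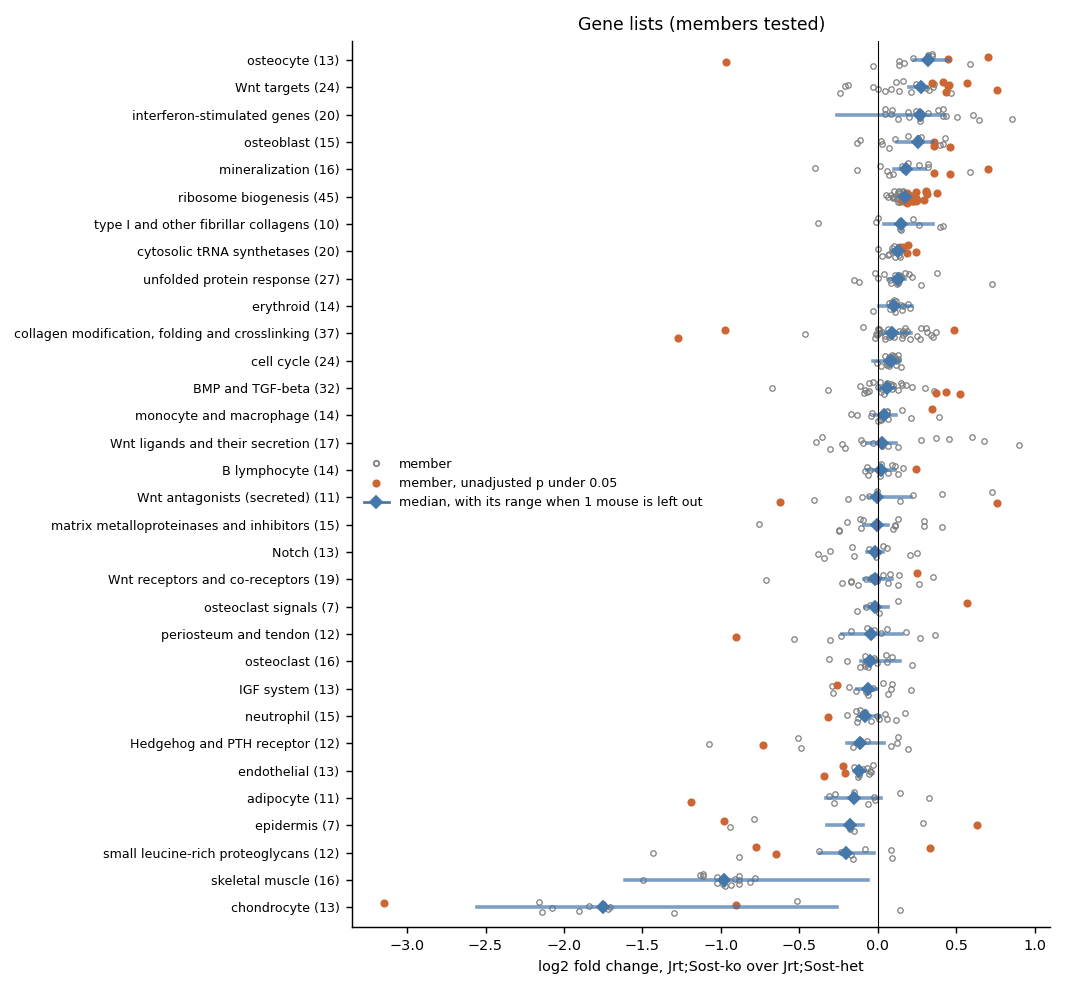
Log2 fold change of Jrt;Sost-ko over Jrt;Sost-het for the members of 32 gene lists (circles, orange where the unadjusted p was under 0.05), with each list's median (diamond) and its range when 1 mouse is left out (line). Medians run from -1.75 for chondrocyte genes to 0.32 for osteocyte genes, and the lines of the chondrocyte, muscle and interferon lists are the longest.

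Genes of ribosome production had small but even differences. All 45 ribosome biogenesis factors tested had a log2 fold change above 0, where 50.4% of all genes did. An unadjusted p under 0.05 was found for 16 (35.6%, where 2.64% of all genes were higher at that p). Groups did not overlap for 9, where 1.89% of all genes were higher without overlap. The list was chosen with earlier results of these data known, so these counts are a description and no independent evidence. The median was 0.17, between 0.134 and 0.199 with any 1 mouse left out, and all 45 remained above 0 each time. The 16 genes became 10 without knockout mouse 2 and 22 without knockout mouse 3. Utp20, a scaffold of the small subunit processome, was read at 37.44, 38.00, 39.74 and 35.28 CPM in Jrt;Sost-het and at 48.58, 45.56, 45.97 and 45.87 CPM in Jrt;Sost-ko mice. The difference was 0.31 in log2 (SE 0.0548; DESeq2 adjusted p = 0.0298), and the groups were apart.

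Wdr43, another processome subunit, was read at 55.63, 52.01, 57.11 and 57.61 CPM in Jrt;Sost-het and at 71.60, 71.32, 62.52 and 69.88 CPM in Jrt;Sost-ko mice (0.31, SE 0.0616; DESeq2 adjusted p = 0.0497). Ddx21, an RNA helicase of the nucleolus, had 135.7, 133.2, 147.6 and 141.2 CPM against 168.2, 164.9, 153.4 and 173.6 CPM (0.24, SE 0.0584). The largest difference on the list was that of Rrs1 at 0.38, and Gar1, Ltv1, Mak16, Rrp1b and Noc2l also did not overlap.

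Cytosolic aminoacyl-tRNA synthetases, which charge tRNAs for translation, also had higher means. All 20 were above 0 with a median of 0.13, and 5 (25%) had an unadjusted p under 0.05 and no overlap. Of all genes, 2.64% were higher at that p and 1.89% were higher without overlap. Without knockout mouse 4, 17 were above 0 and 3 had a p under 0.05, which was also 3 without heterozygote mouse 2 or 3 and 8 without knockout mouse 3. Iars, for isoleucine, was read at 96.24, 100.3, 95.65 and 99.42 CPM in Jrt;Sost-het and at 111.6, 120.3, 115.2 and 116.2 CPM in Jrt;Sost-ko mice (0.24, SE 0.0464; DESeq2 adjusted p = 0.0222). Gars, Tars, Vars and Yars followed at 0.14 to 0.19, values in log2 fold change. Qars (0.003) and Dars (0.02) were nearest to 0.

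The libraries of knockout mice were deeper, and the part of depth in these values was not tested. Jrt;Sost-ko mouse 3, with 37370099 counts, was the lowest knockout in 31 of 45 ribosome biogenesis genes, where it was lowest in 27.6% of all genes tested. Jrt;Sost-het mouse 2, with 29431764 counts, was the lowest heterozygote in 29 of 45, where it was lowest in 22.3% of all genes. The mean log2 CPM of the list was 5.43, 5.38, 5.57 and 5.51 in Jrt;Sost-het and 5.64, 5.68, 5.55 and 5.73 in Jrt;Sost-ko mice, with knockout mouse 3 inside the heterozygote range. With the muscle genes as a covariate the list's median was 0.138, and that of the synthetases 0.097. Cell cycle genes, with 23 of 24 above 0, had a median of 0.084 that turned to -0.028 without Jrt;Sost-ko mouse 4, which was the highest knockout in 24 of 24, and none had an unadjusted p under 0.05.

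Naa15, a subunit of the N-terminal acetyltransferase on ribosomes, was read at 102.5, 97.85, 101.6 and 108.0 CPM in Jrt;Sost-het and at 122.9, 120.7, 116.4 and 123.5 CPM in Jrt;Sost-ko mice (0.24; DESeq2 adjusted p = 0.0497). Ppat, the first enzyme of purine synthesis, had 40.50, 38.48, 43.37 and 42.82 CPM against 49.62, 47.74, 49.24 and 56.90 CPM (0.30). Lrrc59, an endoplasmic reticulum protein, differed by 0.25 and Heatr3, which imports ribosomal proteins into the nucleus, by 0.28. None of these groups overlapped.

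Adamtsl2, a secreted glycoprotein of the fibrillin network, showed a larger difference. It was read at 4.65, 4.39, 4.34 and 4.53 CPM in Jrt;Sost-het and at 9.79, 7.47, 8.19 and 5.34 CPM in Jrt;Sost-ko mice (0.78, SE 0.178; DESeq2 adjusted p = 0.0497). Sdr9c7, a dehydrogenase of the skin barrier, was at 1.44 to 1.68 CPM in Jrt;Sost-het and 2.48 to 5.01 CPM in Jrt;Sost-ko mice. Gm24187, annotated as a miRNA gene, had a log2 fold change of 0.73. AI506816 (0.28) was also among the DESeq2 calls.

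On the lower side, Clec3b, which encodes the plasminogen-binding protein tetranectin, was read at 20.00, 22.65, 16.85 and 26.98 CPM in Jrt;Sost-het and at 16.44, 12.34, 11.91 and 9.50 CPM in Jrt;Sost-ko mice (-0.79, SE 0.189; DESeq2 adjusted p = 0.0497). Abtb1 had 125.8, 138.8, 124.9 and 123.9 CPM against 95.02, 92.47, 103.8 and 111.3 CPM (-0.35; DESeq2 adjusted p = 0.0497). Polr3gl, a subunit of RNA polymerase III, differed by -0.33, Ffar4, a fatty acid receptor, by -0.87, Aldh3b3 by -0.67 and Gm17455 by -1.44, each without overlap. BC117090 was called in DESeq2 at -4.47 but not tested in edgeR, and its counts of 25, 86, 4 and 3 against 2, 3, 1 and 0 rested mostly on Jrt;Sost-het mice 1 and 2.

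Genes beside Sost on chromosome 11 were also examined, a choice made after values had been seen. Of 108 other tested genes within 2 Mb, 43 were above 0, where 50.4% of all genes tested were. Groups did not overlap for 8 of the 108, where they did not for 3.26% of all genes. An unadjusted p under 0.05 was found for 7 (6.48%, where 5.02% of all genes tested had one), and none of the 7 passed adjustment. Of the 108 genes, 6 were lower in Jrt;Sost-ko mice at that p and 1 was higher. Of all genes tested, 2.38% were lower and 2.64% higher at that p. Dusp3, the nearest, at chr11:101971143-101987013, was read at 53.62, 52.08, 61.61 and 65.61 CPM in Jrt;Sost-het and at 51.80, 45.83, 48.94 and 42.32 CPM in Jrt;Sost-ko mice (-0.30).

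Cd300lg, at chr11:102041509-102055620 and 0.07 Mb from Sost, had 19.89, 24.40, 26.25 and 25.18 CPM against 18.52, 18.14, 16.31 and 18.64 CPM (-0.42). Zfp385c, 1.27 Mb away, was low, at 0.983, 0.54, 1.05 and 0.88 CPM against 0.25, 0.119, 0.455 and 0.26 CPM (-1.63). Nags (-1.30), Ramp2 (-0.52) and Ezh1 (-0.16) were the other lower genes and Lsm12 (0.18) the higher one. Any effect of linked strain alleles could not be told apart from that of Sost or from chance.

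Endothelial genes had lower means. All 13 had a log2 fold change below 0, with a median of -0.121 (-0.148 to -0.084 with 1 mouse left out). An unadjusted p under 0.05 was found for 3, where 2.38% of all genes were lower at that p. The 3 became 1 without heterozygote mouse 2 or 4 or knockout mouse 2 or 4. Egfl7, a vascular matrix protein, was read at 36.45, 45.60, 42.88 and 49.90 CPM in Jrt;Sost-het and at 35.14, 33.40, 37.72 and 31.30 CPM in Jrt;Sost-ko mice (-0.35), with overlapping groups. The receptor gene Tie1 differed by -0.23 and the adhesion gene Esam by -0.21. The highest list level was in Jrt;Sost-het mouse 4 and the lowest in Jrt;Sost-ko mouse 4, the mice with the most and the least muscle RNA. With the muscle genes as a covariate the median was -0.061. The part of muscle RNA in the endothelial values was not tested beyond this.

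**Figure D5:**
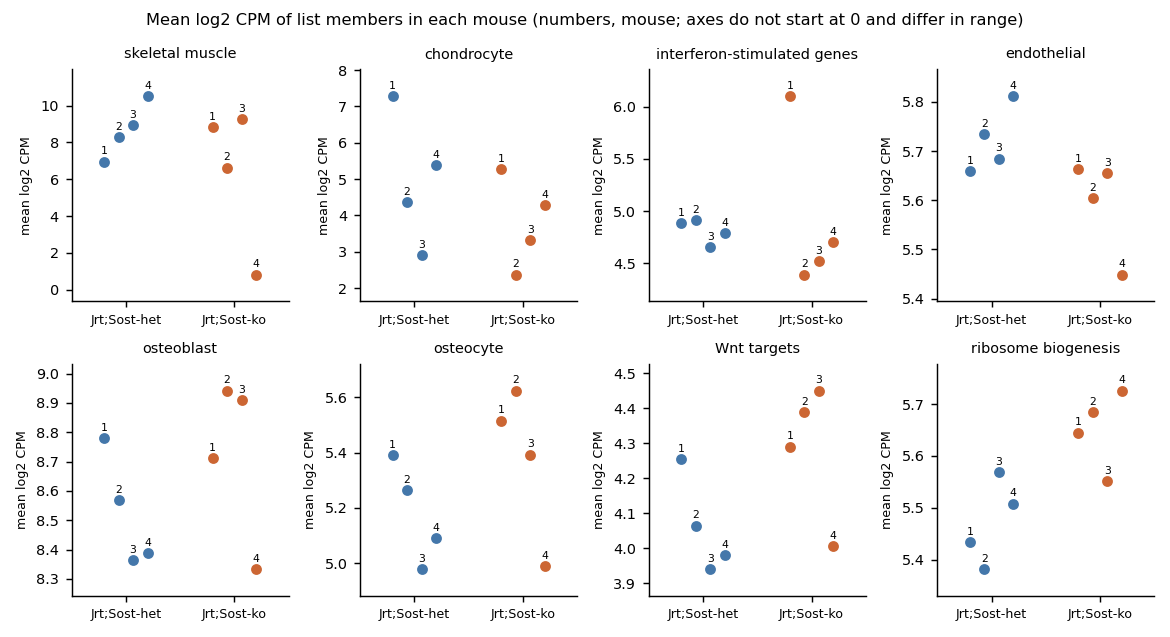
Mean log2 CPM of the members of 8 gene lists in each mouse (numbers, mouse), with axes that differ in range and do not start at 0. Muscle genes nearly vanish in Jrt;Sost-ko mouse 4, chondrocyte genes are highest in Jrt;Sost-het mouse 1 and interferon-stimulated genes in Jrt;Sost-ko mouse 1.

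The lists with the largest medians rested on single mice. Chondrocyte genes had a median of -1.75, which was -0.261 without Jrt;Sost-het mouse 1. Col2a1, the cartilage collagen, was read at 2084, 183.3, 86.89 and 403.4 CPM in Jrt;Sost-het and at 485.2, 58.68, 90.39 and 202.8 CPM in Jrt;Sost-ko mice. Muscle genes had a median of -0.98, which was -0.061 without Jrt;Sost-het mouse 4, and none had an unadjusted p under 0.05.

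Interferon-stimulated genes were all 20 above 0 with a median of 0.27, which turned to -0.258 without Jrt;Sost-ko mouse 1. Irf7, the factor that amplifies the response, was read at 66.18, 67.13, 58.87 and 67.58 CPM in Jrt;Sost-het and at 207.3, 38.72, 49.61 and 55.69 CPM in Jrt;Sost-ko mice. Knockout mouse 1 alone was high, and the other 3 were below every heterozygote.

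The lists of marrow, fat, periosteal and skin cells stood near zero or were mixed. Erythroid genes had a median of 0.105 with no p under 0.05, neutrophil genes of -0.081, B lymphocyte genes of 0.017 and monocyte and macrophage genes of 0.04, each of the last 3 with 1 gene under that p. Adipocyte genes had a median of -0.152, with Cidea lower at -1.19 and at most 0.911 CPM. Periosteum and tendon genes had a median of -0.047. Epidermal genes summed to at most 24.33 CPM, and 7 of 16 were tested. Their 2 members with a p under 0.05, Sbsn (-0.98) and Lor (0.63), went in opposite directions.

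The largest fold changes beside Sost among genes of at least 1 CPM on average all belonged to genes whose groups overlapped, and several were set by 1 mouse. Nr4a3, an immediate early factor, was at 20.91 CPM in Jrt;Sost-ko mouse 1 and at most 2.43 CPM in the other 7 mice. Matn1, a cartilage matrilin, was at 11.84 CPM in Jrt;Sost-het mouse 1 and at most 2.60 CPM elsewhere. The immunoglobulin segments Igkv3-4 and Igkv6-13 were high in 1 mouse each, and the remaining genes of this kind were Hist1h2ak (2.14), Irg1 (2.09), Tchh (1.61), Gm37261 (1.47), Msmp (-3.39), Matn3 (-2.16) and Lect1 (-2.14), in log2 fold change.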

How the data were processed

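RNA from the tibia shaft of 12 male mice was sequenced as poly(A)-selected libraries, and the 8 mice with the Jrt allele were used. The authors made the deposited table of raw read counts per gene from paired-end reads aligned with STAR to GRCm38, and the submitters' processing notes also name bcl2fastq 2.20, Cufflinks, Cuffdiff and DESeq. The counting tool and its strand setting are not given in the sources used here, so overlapping and antisense genes cannot be told apart. Of 47069 genes, 98.9% were found in GENCODE M21.

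Groups came from the genotype labels. Counts were filtered by expression, scaled by TMM and tested with edgeR 4.0.16 (quasi-likelihood, R 4.3.3), with Benjamini-Hochberg adjustment over the 16739 genes tested and a threshold of 0.05. TMM factors and library totals entered CPM. Standard errors were derived from the F statistic, and intervals are 95% intervals. DESeq2 1.42.0, limma 3.58.1 (voom with sample quality weights), other filters and scalings, muscle genes as a covariate, a fit of all 12 mice and leaving out each mouse were alternatives. DESeq2 at its default filter was chosen after seeing the data. The code was tested on simulated data with 200 changed genes. Each library is 1 mouse, so p-values measure the spread between mice.

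The 32 gene lists and the genes named were chosen with earlier results of these data known. Genes were named if the study lists them, if edgeR or DESeq2 called them, if they were among the 12 per direction with the smallest p without overlap, if they were among the 6 per direction with the largest fold at 1 CPM or more on average, or if they belonged to a list. All 18 DESeq2 calls were named, although the rule limited them to the 5 largest rises and falls. The 4 wild-type mice entered only the fit of all 12, and values of each mouse were read from the joint table of counts, not from the deposited tables that hold 1 mouse each.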

Additional observations from a re-analysis of the deposited data

Results flagged for a closer look

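In 15 of 142 groups of 4 mice compared, 1 mouse lay far from the other 3, where chance alone flags about 1 in 20 groups. Some of these genes were named for a large fold, which 1 outlying mouse can set, so the count cannot be read against chance. The gap of that mouse to its nearest neighbour is given as a share of the group's whole range. Sost was highest in Jrt;Sost-het mouse 3, at 70.07 CPM against 27.15 to 34.43 CPM (share 0.830). Dkk1 was highest in Jrt;Sost-ko mouse 2 (0.862), at 32.78 against 24.01 to 25.22 CPM, and Utp20 in Jrt;Sost-ko mouse 1 (0.865), at 48.58 against 45.56 to 45.97 CPM. Abtb1 was highest in Jrt;Sost-het mouse 2 (0.872), at 138.8 CPM. For these 4 genes the groups did not overlap.

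Of genes with large folds, Sdr9c7 (0.939), Tchh (0.969) and Msmp (0.866) were highest of the knockouts in mouse 3, at 5.01, 7.50 and 0.857 CPM. Nr4a3 was highest in Jrt;Sost-ko mouse 1 (0.920), Igkv3-4 in Jrt;Sost-ko mouse 4 (0.992, at 14.25 CPM), Igkv6-13 in Jrt;Sost-het mouse 3 (0.986, at 13.22 CPM) and Gm37261 in Jrt;Sost-het mouse 2 (0.954, at 3.41 CPM). Among lists, the mean log2 CPM of mineralization genes (0.854) and of BMP and TGF-beta genes (0.866) was lowest of the knockouts in mouse 4, at 7.04 and 4.09. That of cell cycle genes was lowest in Jrt;Sost-het mouse 4 (0.884, at 7.52) and that of monocyte and macrophage genes in Jrt;Sost-ko mouse 3 (0.917, at 6.45).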

How the results depend on the processing

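At an adjusted threshold of 0.05, edgeR called 1 gene and the alternatives called 18 in DESeq2, 7 in DESeq2 at its default filter, 0 in limma-voom and 0 with robust estimation of the spread. Leaving out 1 mouse gave 0 to 3 genes. No gene was called when knockout mouse 1, 3 or 4 was left out, 2 when heterozygote mouse 2 was (Gm37261 added) and 3 when heterozygote mouse 3 was (Tdg and Gm9855 added). At an unadjusted p under 0.05 there were 841 genes, 1483 in limma-voom, and 509 (without Jrt;Sost-ko mouse 2) to 1249 (without Jrt;Sost-ko mouse 3) with 1 mouse left out. The log2 fold change of Sost lay between -6.40 and -5.46 under all 18 alternatives, 8 of which leave out a mouse. It missed the threshold in limma-voom (-5.66, adjusted p = 0.479), with robust estimation (-5.87, adjusted p = 0.0974 in edgeR) and when knockout mouse 1, 3 or 4 was left out. The cause was not tested. Of the values of 38 other named genes, 649 kept their side of the threshold, 22 passed it under an alternative and 5 changed sign. Of 576 list medians under alternatives, 54 changed sign, in 17 lists. No paired analysis was possible because the mouse numbers in the labels are single animals and pair none across the groups. Few counts limit what can be read for genes of low level, such as Fgf23 and Sostdc1.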
